A study of Homo sapiens with 2 samples.

Results

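The zinc finger cluster of chromosome band 7q11 was described through 6 genes: ZNF107, ZNF138, ZNF273, ZNF117 and ZNF92, which encode zinc finger proteins, and ERV3-1, which holds the envelope reading frame of an ancient retrovirus. The genes were chosen by symbol, with their values in these libraries known, and 6 of 6 were found among the 62702 rows of the count table. RNA was measured in 2 libraries of K562, an erythroid-like cell line from a patient with chronic myeloid leukemia. Both were made from cells titled WT with the genotype label E50_dCas9-KRAB. dCas9-KRAB joins a Cas9 that cannot cut DNA to a KRAB repressor domain, and E50 is not explained in the labels. The control library received the lentiviral guide sgRNA_Control. The SMC1A library received sgRNA_SMC1A, directed at a subunit of cohesin, the ring complex that forms chromatin loops. Puromycin at 1 µg/ml was applied between days 2 and 6, cells were sorted for the strongest blue fluorescence of the guide vector, and no label names a clone or a harvest day. Each guide has a single library, so there is no replicate check and no p-value, and every interval is a 95% interval for counting error alone.

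Clusters of KRAB zinc finger genes arose by repeated duplication of an ancestral gene together with its promoter. Their proteins bind DNA, often inside transposable elements, and the KRAB domain recruits the corepressor TRIM28, which brings histone methylation and silencing. ERV3-1 is an old retroviral insertion that still holds an annotated envelope coding sequence, and its RNA is known from placenta and other hormone-responsive tissues. ZNF117 lies downstream of it on the same strand, and transcripts that run from the ERV3-1 start into ZNF117 are annotated.

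The promoter windows of the cluster are printed here because that of ERV3-1 resembles those of its zinc finger neighbours. RefSeq windows (GRCh38.p14) of 300 bases, 250 before and 50 after the start, were matched for 6 of 6 genes. The stretch from 10 bases before the first TCCAATCAGG to the last base before the start is given 5′ to 3′ for 5 of them. Capitals mark TCCAATCAGG, which holds the CCAAT box bound by NF-Y, and CTTCCGG, a core word of ETS-type sites. For ZNF273 the downstream start of its pair of RefSeq windows is shown, and for ERV3-1 the upstream one.
ZNF107 (chr7:64666041-64666132, plus strand): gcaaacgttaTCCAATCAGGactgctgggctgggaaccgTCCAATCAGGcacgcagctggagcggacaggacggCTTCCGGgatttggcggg
ZNF138 (chr7:64794330-64794427, plus strand): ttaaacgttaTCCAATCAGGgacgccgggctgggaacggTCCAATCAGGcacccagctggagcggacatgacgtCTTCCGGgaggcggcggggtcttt
ZNF273 (chr7:64903175-64903272, plus strand): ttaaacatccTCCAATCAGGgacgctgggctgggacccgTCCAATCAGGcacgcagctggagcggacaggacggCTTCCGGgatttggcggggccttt
ERV3-1 (chr7:65006688-65006784, minus strand): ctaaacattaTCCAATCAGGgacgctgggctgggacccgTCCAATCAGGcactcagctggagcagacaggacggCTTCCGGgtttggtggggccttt
ZNF92 (chr7:65373757-65373854, plus strand): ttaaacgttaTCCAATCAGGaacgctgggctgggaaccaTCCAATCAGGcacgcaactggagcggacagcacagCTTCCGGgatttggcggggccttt

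Over the whole 300 bases, the ERV3-1 window was 75.7% to 80.2% identical to the 4 zinc finger windows, which were 79.6% to 84.2% identical to each other in global alignments. The words were chosen after the sequences were seen, both strands were searched, and they do not overlap each other. TCCAATCAGG is the longest word that occurs at least 2 times in a window of each of these 5 genes, and 24 of 35116 windows of the RefSeq table (0.0683%) hold it that often. At least 1 match stood in 23 of 25 matched relatives of ZNF91 on 19p12, against 0.428% of all genes in the RefSeq table. CTTCCGG occurred in the same 5 genes, against 12.2% of all genes there. In ERV3-1 the pair of TCCAATCAGG matches began at positions -87 and -58 and CTTCCGG at -23, within 6 bases of the corresponding matches in the other 4. The octamer ATGCAAAT, a word bound by POU factors such as OCT1, lay between -242 and -229 in the 4 zinc finger windows (1.77% of all windows have it) and these letters were not in the ERV3-1 window. ZNF680, a zinc finger gene next to the cluster, carried all 3 words too.

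**Figure D1:**
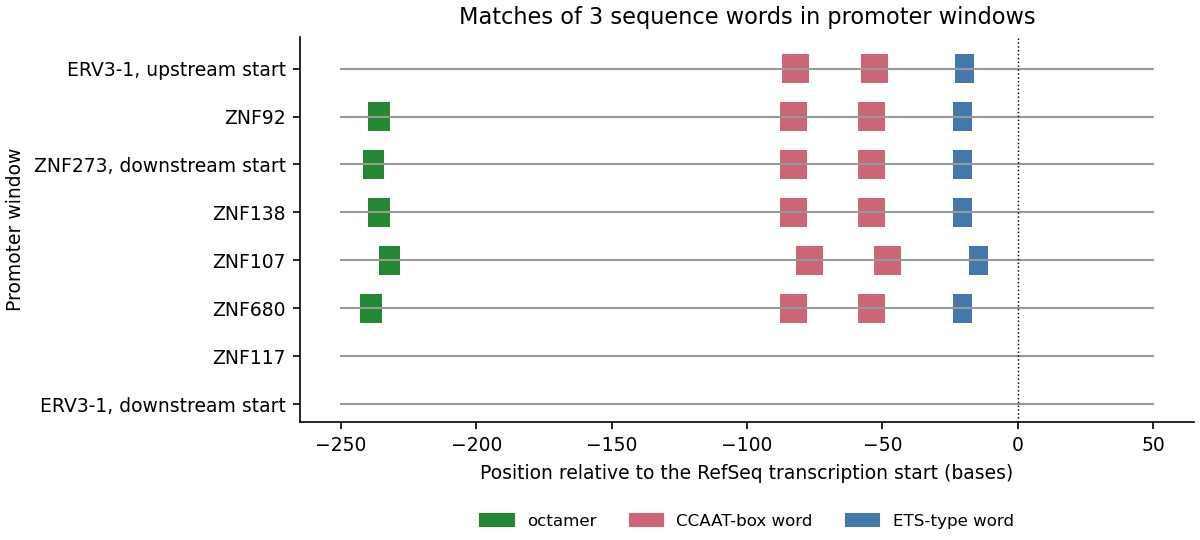
Matches of the octamer (green), TCCAATCAGG (red) and CTTCCGG (blue) in promoter windows, by position relative to the RefSeq start in bases. The ERV3-1 upstream window has the red pair and the blue word at nearly the places they take in ZNF92, ZNF273, ZNF138, ZNF107 and ZNF680, and the windows of ZNF117 and of the downstream ERV3-1 start have none of the 3.

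The window of the RefSeq ZNF117 start (chr7:64990987-64991286) was 42.2% to 45.5% identical to the 5 similar windows, in the range of the first ZNF273 window (42.7% to 45.8%) and of the downstream ERV3-1 window (41.9% to 46.3%). All 300 of its bases lay inside exons annotated to ERV3-1 in GENCODE release 29, 72 of them in the envelope coding sequence. That RefSeq start thus sits in the last exon of the upstream neighbour, while other annotated ZNF117 transcripts start elsewhere.

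The annotated transcripts show how the pair is joined. ERV3-1 (ENSG00000213462.5, chromosome 7, 64990809 to 65006743, minus strand, GRCh38) lies with 99.6% of its span inside that of ZNF117 (ENSG00000152926.16, 64971776 to 65006684, minus strand). Their exons overlap far less, by 372 bases, which is 8.13% of the 4574 exon bases of ERV3-1 and 3.48% of the 10691 of ZNF117. The transcript ZNF117-202, annotated as a retained intron, begins 0.059 kb downstream of the first ERV3-1 base and shares 144 exon bases with ERV3-1. The coding transcript ZNF117-201 begins 15.7 kb downstream, and 228 of its bases lie in ERV3-1 exons. The coding transcripts ZNF117-204 and ZNF117-203 begin 24.6 and 24.7 kb downstream and share no exon base with it.

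**Figure D2:**
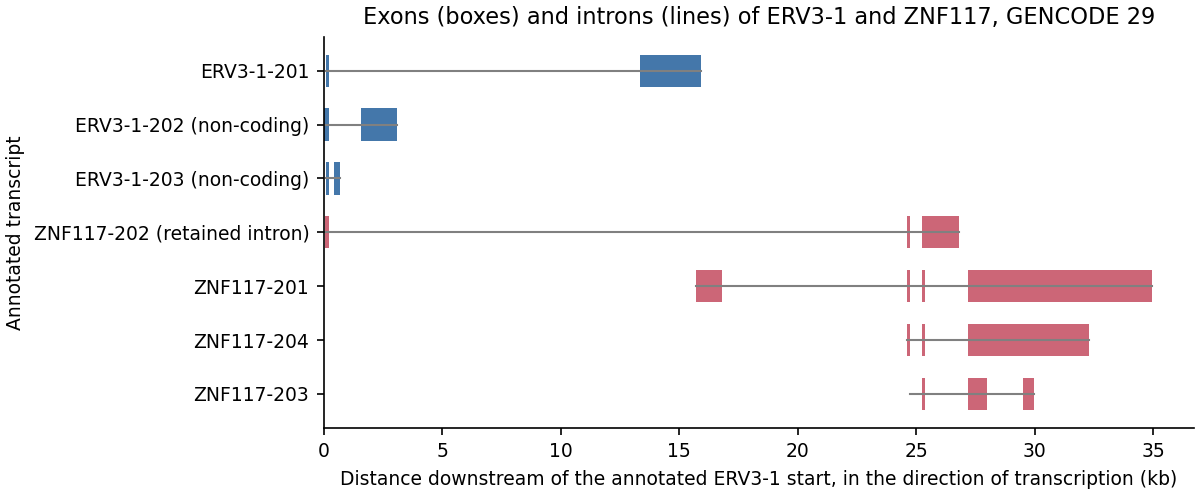
Exons (boxes) and introns (lines) of the 3 ERV3-1 and 4 ZNF117 transcripts of GENCODE release 29, by distance in kb downstream of the ERV3-1 start in the direction of transcription. ZNF117-202 shares the first exon region of ERV3-1, ZNF117-201 starts in its last exon, and the large ZNF117 exon lies beyond all ERV3-1 exons.

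Reads could be told apart for most of this sequence. Of the distinct 100-base windows (the read length) in annotated transcripts, 174 of 4474 from ERV3-1 (3.89%) and the same 174 of 10668 from ZNF117 (1.63%) occurred in the other gene. ZNF107, ZNF138, ZNF273 and ZNF92 shared 0 windows of this length with transcripts of any other gene. Single reads with mismatches, and transcripts that GENCODE release 29 does not hold, are not covered by this comparison.

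In total, 18349209 counts came from the control library and 16864207 from the other. SMC1A itself stood at 460.4 and 16.3 CPM (counts relative to the TMM-scaled library size), so 3.55% of the control level was left (3.14 to 3.99). Erythroid markers were present, all 9 of 9 listed, with summed levels of 14536 and 13361 CPM. Single markers differed more than the sum, with 4 of 9 at least 2-fold lower (2.32% of all genes were) and a median log2 ratio of -0.56. The globin gene HBG2 was at 3713 and 1159 CPM (log2 ratio -1.68) and HBZ at -1.56, HBG1 at -1.50 and the transferrin receptor gene TFRC at -1.41, while HBE1 went from 6755 to 10348 CPM (0.62). HBG1 and HBG2 are near-identical copies, so reads may be divided between them with error. Of 9 trophoblast markers, listed because ERV3-1 RNA is known from placenta, all 9 had 0 counts in both libraries. Monocyte markers summed to 43.7 and 58.0 CPM over 7 genes, nearly all of it LYZ and CD68, while CD14 had 3 and 1 counts, ITGAM 10 and 28, CSF1R 1 and 6 and FCGR3A 2 and 6. Sebaceous and adrenal markers summed to 158.0 and 177.3 CPM over 6 genes, led by STAR with 110.7 and 154.5 CPM, while FADS2 was at 46.1 and 20.6 CPM, CYP17A1 had 1 and 0 counts and CYP11A1 0 and 15. The part of these markers in the results was not tested. In bulk RNA, more cells with a transcript and more RNA per cell cannot be told apart.

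Within the cluster, ERV3-1 and ZNF117 were more than 4-fold higher in the SMC1A library, and the 4 other zinc finger genes were all lower there, by less than 2-fold; 54.3% of all genes had a ratio below 0. ERV3-1 had 727 counts (41.4 CPM, interval 38.5 to 44.6) in the control library and 3360 counts (190.5 CPM, 184.1 to 197.1) in the SMC1A library. That is 4.59-fold higher (4.24 to 4.99), a log2 ratio of 2.20. ZNF117 had 1208 counts (68.9 CPM, 65.0 to 72.8) and 5303 counts (300.7 CPM, 292.6 to 308.9), 4.36-fold higher (4.10 to 4.65), a log2 ratio of 2.13. The counting intervals of the levels in the libraries were far apart for both genes, while those of their ratios overlapped each other.

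These 2 genes stood near the top of all genes measured. Among 11321 genes with at least 100 counts over both libraries, ERV3-1 ranked 101 and ZNF117 ranked 112 by log2 ratio. Of the 6 cluster genes, 2 were at least 2-fold higher, against 5.11% of all genes, and 0 of 6 were at least 2-fold lower, against 2.32%. At least 4-fold higher were the same 2, against 1.12% of all genes. Since the genes were picked with these ratios known, the counts are a description and nothing is read from their difference.

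**Figure D3:**
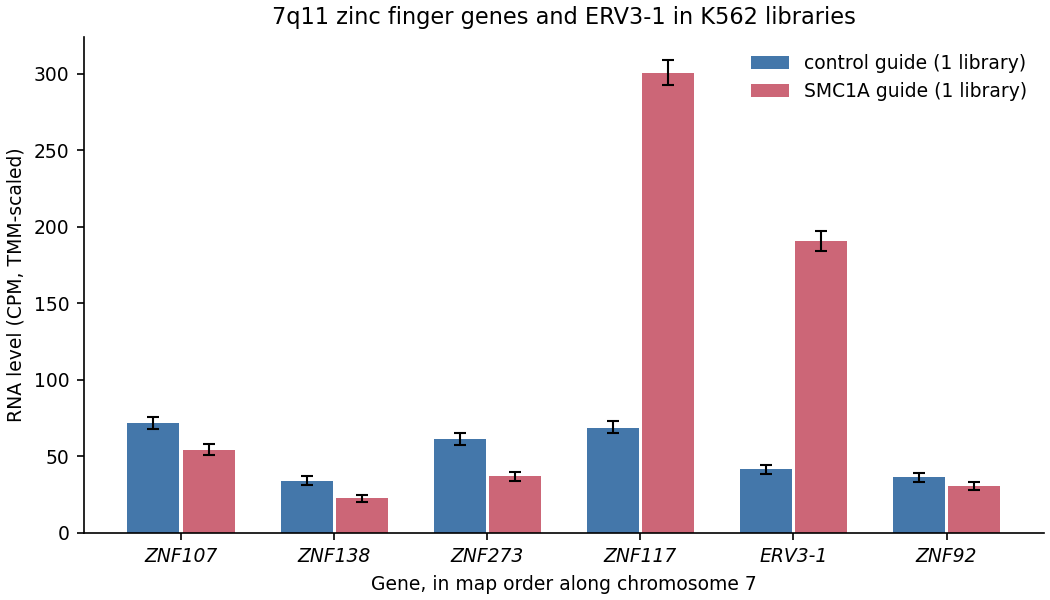
RNA level in CPM (TMM-scaled) of the 6 genes, in map order, in the control library (blue) and the SMC1A library (red); error bars are 95% counting intervals. ZNF117 reaches 300.7 and ERV3-1 190.5 CPM under the SMC1A guide, and the other 4 genes are lower in that library.

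ZNF117 and ERV3-1 kept nearly the same proportion to each other. ZNF117 made up 62.4% (exact interval 60.2 to 64.6) of the counts of the pair in the control library and 61.2% (60.2 to 62.2) in the SMC1A library, a comparison within each library that needs no scaling. The intervals overlapped. Salmon divides reads between overlapping transcripts by estimation, and the part of that division in the stable proportion was not tested. The sum of the pair, which does not depend on the division between them, was 1935 and 8663 counts, 4.45-fold higher (4.24 to 4.68), a log2 ratio of 2.15.

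Per kb of annotated exon, the level of ERV3-1 went from 9.06 to 41.7 CPM per kb and that of ZNF117 from 6.44 to 28.1. With the control guide the 6 genes lay within a narrow band on this scale, with ZNF117 at 6.44 the lowest and ZNF138 the highest, ZNF273 at 7.08, ZNF107 at 10.0 and ZNF92 at 10.3. With the SMC1A guide the order was ERV3-1, ZNF117, then ZNF92 at 8.67, ZNF138 at 7.94, ZNF107 at 7.60 and ZNF273 at 4.27 CPM per kb. ZNF117 thus passed from the lowest place to the second highest. Exon lengths are unions over transcripts, so a gene with many unused exons appears lower than it is.

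ZNF273, whose span ends 40.8 kb from the end of ZNF117 and runs toward it on the opposite strand, was the lowest. It had 1075 counts (61.3 CPM) in the control library and 652 (37.0 CPM) in the SMC1A library, 1.66-fold lower (1.5 to 1.83), a log2 ratio of -0.73. ZNF138, the next gene on that side, had 598 and 399 counts (34.1 and 22.6 CPM), 1.51-fold lower (1.33 to 1.71), a log2 ratio of -0.59. For both, and for ZNF107 and ZNF92 as well, the control level lay above the whole counting interval of the SMC1A library.

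ZNF107 had 1262 and 960 counts (71.9 and 54.4 CPM) and was 1.32-fold lower (1.21 to 1.44), a log2 ratio of -0.40. ZNF92, on the far side of ERV3-1 and 367.1 kb from it, had 635 and 537 counts (36.2 and 30.4 CPM). It was 1.19-fold lower (1.06 to 1.34), a log2 ratio of -0.25, the smallest difference of the 6. Roles of these 4 proteins in K562 cells are not described in the labels, and all 4 are zinc finger proteins taken to act as DNA-binding repressors.

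The 3 cluster genes on the centromeric side were ordered by distance. The log2 ratio was -0.40 for ZNF107, whose start is 340.7 kb from that of ERV3-1, -0.59 for ZNF138 at 212.4 kb and -0.73 for ZNF273 at 136.6 kb. These distances use annotated gene starts. For ZNF273 that start belongs to a non-coding transcript, and its coding transcript ZNF273-204 starts nearer to ERV3-1, at 64903247. The interval of ZNF138 (-0.78 to -0.41) overlapped both of the others, and those of ZNF107 (-0.52 to -0.28) and ZNF273 (-0.87 to -0.59) did not overlap each other. Farther out on that side, ZNF680 at 443.6 kb had a log2 ratio of 0.28 and ZNF736 at 699.3 kb one of 0.16. With ZNF736 the order no longer held, and a link of ratio to distance was not tested. Summed, ZNF107, ZNF138, ZNF273 and ZNF92 had 3570 and 2548 counts, a log2 ratio of -0.49 (-0.57 to -0.42). Relative to their sum, the pair of ERV3-1 and ZNF117 had 0.542 counts per count in the control library and 3.40 in the SMC1A library. Of all counts in the 6 genes, the pair took 35.1% (33.9 to 36.4) and 77.3% (76.5 to 78.0).

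The surrounding band was examined to see where along the chromosome the difference lay. The window from 1 Mb before the first to 1 Mb after the last of the 6 genes held 109 annotated genes, 13 of them with at least 100 counts. Of those 13, ERV3-1 and ZNF117 passed 2-fold upward and 0 passed it downward, against 5.11% and 2.32% of all genes. Both were picked with their ratios known, so nothing is read from that count. Of the 7 window genes outside the cluster, 0 passed 2-fold in either direction. The zinc finger genes ZNF736 and ZNF680, proximal to ZNF107, had 599 and 672 counts (log2 ratio 0.16, interval 0.00 to 0.32) and 487 and 596 counts (0.28, 0.11 to 0.46). ZNF680 has the same promoter words as the cluster genes that were lower, and a link of these words to the ratios was not tested. The other 4 genes of the list of further 7q11 zinc finger genes had too few counts for a ratio.

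Beyond ZNF92 the window holds genes of other functions. VKORC1L1, which encodes a vitamin K epoxide reductase, was at -0.54 (2504 and 1735 counts) and GUSB, the lysosomal beta-glucuronidase gene often used as a reference in PCR, at 0.52 (1804 and 2605). ASL, the argininosuccinate lyase gene, was at -0.14 (interval -0.32 to 0.03) and CRCP, an RNA polymerase III subunit gene, at -0.42. LINC00174, which is non-coding and was named after its value was seen, was at 0.25. Ratios of both signs thus occurred along the band, and the 7 genes outside the cluster lay between -0.54 and 0.52. INTS4P2, a pseudogene copy of INTS4 that was also picked after its counts were seen, had 0 and 32 counts, and its reads may belong to other copies.

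**Figure D4:**
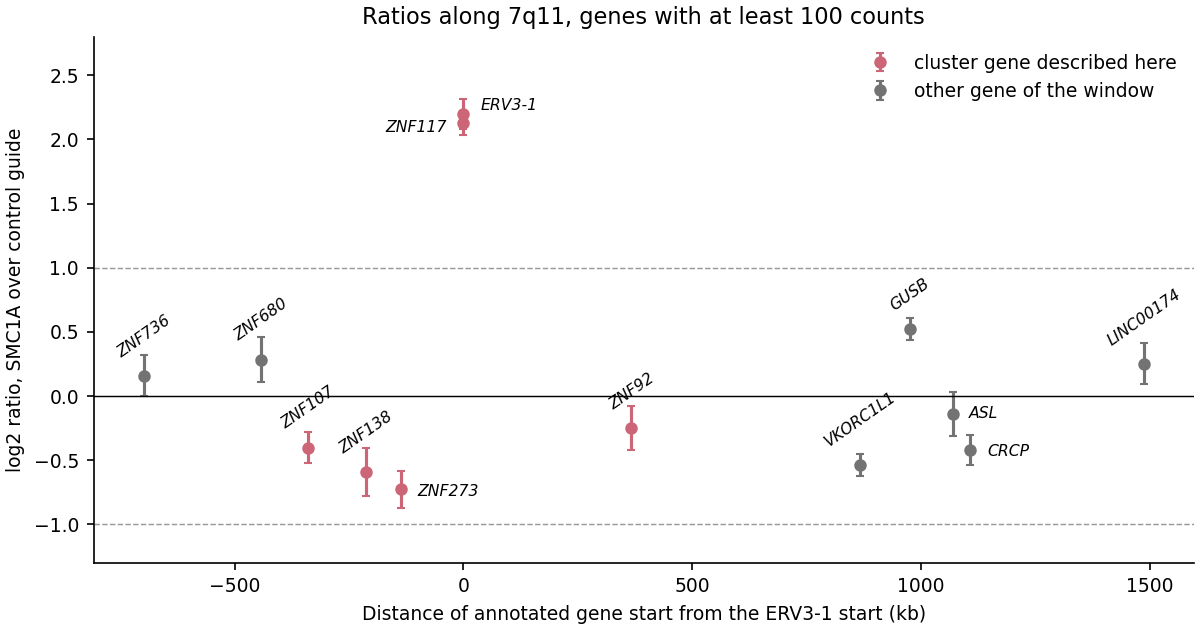
log2 ratio (SMC1A over control guide) of the genes with at least 100 counts, by distance in kb of their annotated start from the ERV3-1 start; bars are 95% counting intervals and dashed lines mark 2-fold. ERV3-1 and ZNF117 stand above 2.0 at distance 0, while the other genes lie between -0.73 and 0.52.

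The 5 zinc finger genes were also ranked among all genes named ZNF. Of 341 such genes with at least 100 counts, ZNF117 had the highest ratio, and ZNF273 ranked 335, ZNF138 329, ZNF107 291 and ZNF92 244. The 2-fold rule was met upward by 5 of the 341 (1.47%) and downward by 2 (0.587%), against 5.11% and 2.32% of all genes, and with the expression trend removed by 2 and 3. Nearest to ZNF117 by absolute difference of log2 ratios, over the 2 libraries, were ZNF304 on chromosome 19 (43 and 107 counts, log2 ratio 1.29, difference 0.84), ZNF774 on chromosome 15 (34 and 76 counts, 1.13) and ZNF772 on chromosome 19 (39 and 84 counts, 1.08). Each had far fewer counts and a ratio under 2.5-fold, so none of the 341 lay close to ZNF117. Below 100 counts the ratios rest on few reads, and some came closer or lay higher. ZNF737 had 3 and 16 counts (log2 ratio 2.08, interval 0.60 to 4.83) and was named after its value was seen. Among the 396 genes named ZNF with at least 20 counts the highest log2 ratio was 4.52, above that of ZNF117. The fifth of the 341 past 2-fold upward was ZNF713 on chromosome 7 (46 and 94 counts, 1.01). The lower ones were ZNF30 (253 and 101 counts, -1.32) and ZNF569 (80 and 33 counts, -1.26), all 3 named after their values were seen. The median over the 396 genes named ZNF with at least 20 counts was -0.01, the same as over all 14257 genes (-0.01). By library totals the ZNF median was 0.12.

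Genes of 19p12 related to ZNF91 form the largest group of close relatives of the cluster. Of 33 listed, 23 had at least 100 counts, 0 were past 2-fold in either direction (5.11% of all genes were higher and 2.32% lower by that much), and 17 of 23 were above 0, against 45.7% of all genes. Their median over the 24 with at least 20 counts was 0.25, or 0.085 once the trend with expression level was removed. The highest were ZNF730 (35 and 71 counts, log2 ratio 0.99, at or past 2-fold under 4 other settings with 1.12 by library totals) and ZNF492 (77 and 134 counts, 0.78), and the lowest ZNF708 (360 and 325 counts, -0.15) and ZNF681 (391 and 364 counts, -0.11). ZNF107, ZNF138, ZNF273 and ZNF92, at -0.25 and below, lay under all 23 by point value. The counting intervals were less apart. Those of ZNF92 (-0.42 to -0.08) and ZNF107 (-0.52 to -0.28) overlapped those of ZNF708 (-0.38 to 0.07) and ZNF681 (-0.32 to 0.10).

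The promoter family was followed in the same way. Of the 24 genes with at least 2 TCCAATCAGG matches in a window, 19 are named ZNF, and 16 had at least 100 counts, 15 of them named ZNF and the other being ERV3-1. ERV3-1 was the highest of the 16, and the remaining 15 lay between -0.73 (ZNF273) and 0.67 (ZNF208, 56 and 90 counts). The median of the 16 was -0.05, with 7 above and 9 below 0. Of the 16, 1 was past 2-fold upward and 0 downward, shares near those over all genes (5.11% and 2.32%, with 54.3% below 0).

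**Figure D5:**
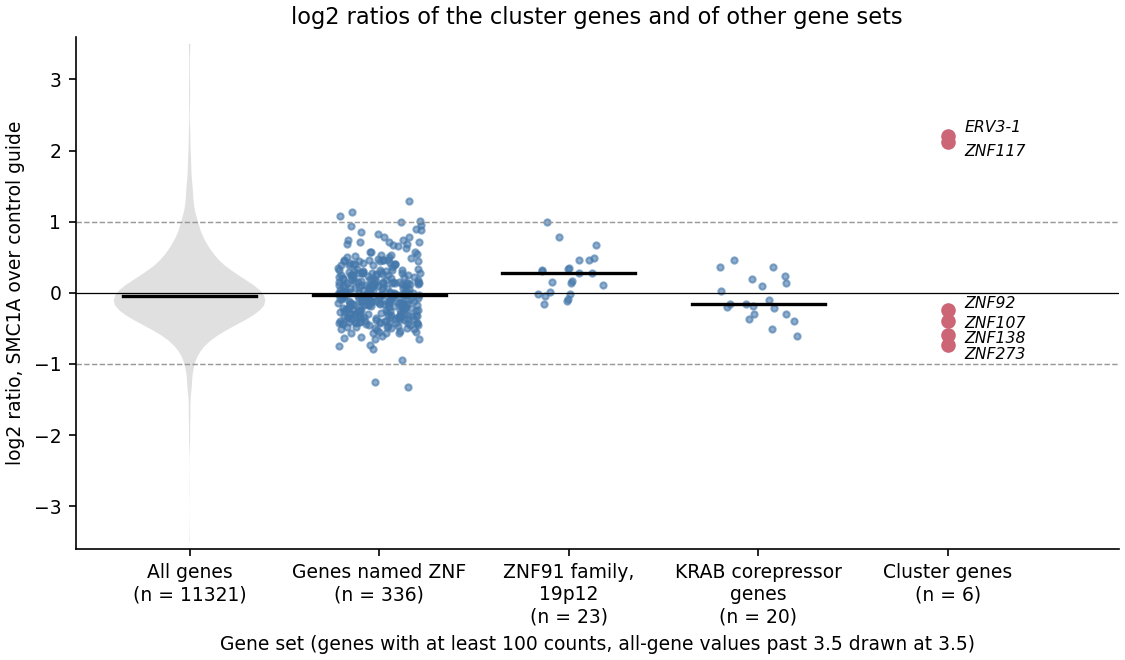
log2 ratios of genes with at least 100 counts: all genes (grey shape), genes named ZNF outside the cluster, relatives of ZNF91 on 19p12, KRAB corepressor genes (blue points) and the 6 cluster genes (red); black lines are medians and dashed lines mark 2-fold. ERV3-1 and ZNF117 lie above every other ZNF gene drawn, and the other 4 cluster genes lie below 0.

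KRAB corepressor genes, which encode the partners through which such proteins silence chromatin, were all within 2-fold. Against shares of 5.11% and 2.32% over all genes, 0 of 20 is close to the background. Of 20 listed and measured, 8 were above 0 and 12 below (54.3% of all genes were below), with a median log2 ratio of -0.16, or -0.026 by library totals and -0.0012 with the expression trend removed. TRIM28, the direct partner of the KRAB domain, was at 526.6 and 370.1 CPM (log2 ratio -0.51, interval -0.55 to -0.46, or -0.27 with the expression trend removed) and DAXX, a histone chaperone gene, at 143.9 and 94.1 CPM (-0.61). The histone methyltransferase gene SETDB1, chosen after its value was seen, was at 67.4 and 62.8 CPM (-0.10, -0.22 to 0.02). The highest were CHD3, a remodeller gene, at 119.4 and 164.7 CPM (0.46) and TASOR, of the HUSH silencing complex, at 91.4 and 117.8 CPM (0.37).

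Other genes named for endogenous retroviruses did not share one direction. Of 9 listed, 4 had at least 100 counts. ERV3-1, a cluster gene picked with its ratio known, was past 2-fold upward and 1 was past it downward. Over all genes these shares were 5.11% and 2.32%. The lower gene was ERVMER34-1, which is envelope-derived, with 114 and 48 counts (log2 ratio -1.24, interval -1.77 to -0.76). ERVK3-1 was at -0.39 (1487 and 1144 counts) and ERVK13-1 at 0.17 (350 and 395 counts). The syncytin genes ERVW-1 and ERVFRD-1, which encode placental fusion proteins, had 0 counts in both libraries, where a floor of 3 counts is 0.171 CPM in the control library and 0.170 in the other. ERVV-1 had 0 and 13 counts and ERVV-2 1 and 8, named after their counts were seen.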

How the data were processed

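Poly(A)-selected RNA of K562 cells was sequenced from both ends in a strand-preserving protocol, 1 library per guide, per the labels' protocols. The authors deposited estimated counts per gene, not scaled, which the file's name gives as merged Salmon gene counts. The submitters' processing notes name STAR 2.7.10a, Salmon 1.10.1, DESeq2 1.42.1 and hg38; which tool did what, and with which annotation, is not given in the sources used here. All deposited estimated counts are whole numbers.

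Library sizes were scaled with TMM (edgeR 4.0.16, R 4.3.3). log2 ratios used edgeR's formula with a prior count of 1, and intervals were exact (Clopper-Pearson, 95%). The reads carry no molecular identifiers, so they do not count single molecules. Up to 3 counts are compatible with a count of 0. The 2-fold rule used genes with at least 100 counts and list medians those with at least 20. No test was possible with 1 library per guide. Coordinates and exons came from GENCODE release 29, on the build of the notes but not the table's annotation, which held 97.9% of genes with at least 100 counts. Windows were aligned with Biopython 1.88. The calculation was checked on simulated counts. The 6 genes and all lists were chosen with earlier results of these data known. Genes named are the 6, SMC1A, coding genes of the window, the 2 highest and 2 lowest of lists the text describes, and the 3 ZNF genes nearest to ZNF117; other list members picked by this rule stand in no sentence. Other scalings (size factors of DESeq2 1.42.0 among them), prior counts and filters were tried as alternatives.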

Additional observations from a re-analysis of the deposited data

How the results depend on the processing

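Each of the 6 genes kept its sign under all settings run (5 scalings, prior counts of 0.25, 1 and 5, removal of the trend with expression), and the count of 2 genes at least 2-fold higher and 0 lower held under these and under all filters. The log2 ratio ranged from 2.12 to 2.28 for ZNF117, from 2.19 to 2.33 for ERV3-1, from -0.40 to -0.27 for ZNF107, from -0.59 to -0.46 for ZNF138, from -0.73 to -0.60 for ZNF273 and from -0.25 to -0.12 for ZNF92. Scaling by library totals moved the median of all genes by 0.13 and gave 2.25 for ZNF117, 2.33 for ERV3-1, 2.28 for their sum and -0.27 for ZNF107, and medians of 0.35 for further 7q11 zinc finger genes, -0.026 for corepressor genes, 0.38 for 19p12 genes and 0.29 for the 7q11 window. It turned the medians of retrovirus genes (0.020 from -0.11) and of genes named ZNF (0.12 from -0.01; 0.0081 by the upper quartile). Without the expression trend ZNF117 was at 2.28, the sum at 2.29, and the medians at -0.0012 for corepressor and 0.085 for 19p12 genes. The median of the 7q11 window was 0.16 over genes with at least 20 counts, -0.14 with at least 100 and 0.042 in a window of 3 Mb either side. Over all genes, 579 were at least 2-fold higher and 263 lower; a filter of 20 counts gave 1361 and 518, one of 500 counts 199 and 140, none at all 3800 and 2714, and a rule on the whole counting interval 343 and 143. Of 231 values of 33 other named genes under these settings, 201 stayed inside the counting interval, 2 changed sign (ZNF681 at 0.018 by library totals and SMC3 at 0.0021 without the trend), and 8 crossed 2-fold, in ZNF713, ZNF730, ZNF772 and ZNF774; the cause was not tested. Of the 341 genes named ZNF, 10 were at least 2-fold higher by library totals and 2 without the trend. Over all 11321 genes these counts were 766 and 508. With 20 counts, 15 of 396 were higher and 4 lower, against 1361 and 518 of 14257 over all genes. With 500 counts, 1 was higher and 0 lower, against 199 and 140 over all genes. Of the 23 genes of 19p12, 1 was higher by library totals, size factors, the upper quartile and a prior of 0.25. Over all 11321 genes these settings gave 766, 599, 609 and 591. Of 19 window genes with 20 counts, 4 were higher, among them ERV3-1 and ZNF117, which were picked with their ratios known. Over all genes this was 1361 of 14257. TRIM28 was at -0.38 by library totals. No paired analysis was possible because each guide has 1 library.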
